A study of Oreochromis niloticus with 3 samples.

Results

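The insulin-like growth factor (IGF) axis of the Nile tilapia hepatopancreas was followed through 5 genes, taken by name from a table of 29605 genes: the ligand igf1, the duplicated type 1 receptor genes igf1ra and igf1rb, and the binding protein genes igfbp1a (LOC100702579) and igfbp3. All 5 genes were found. The table lists igf1 as igf-i and gives the other 4 as locus numbers (igf1ra as LOC100711993, igf1rb as LOC100707581 and igfbp3 as LOC100702310). Juvenile healthy fish were kept in freshwater (0 psu) or in water of 8 or 16 psu, with 3 tanks per salinity and a stepwise rise of 4 psu a day for the saline groups. The labels give 5 weeks of rearing from an initial weight of 2.2 g, while the study's methods give other values for both, and the fish were fasted before sampling. Poly(A) RNA of 8 fish per salinity was pooled into 1 single-end Ion Proton library, so the 3 salinities are represented by 3 libraries and no difference has a replicate check.

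IGF1 is a secreted growth factor that the liver releases under the control of growth hormone, and in fish, as in mammals, it carries part of the growth-promoting action of that hormone. In the circulation it is held by binding proteins. In mammals IGFBP3 forms a long-lived complex with IGF1 and the acid-labile subunit IGFALS, whereas IGFBP1 is a small, rapidly regulated protein of the liver that insulin lowers and that fasting, glucocorticoids and hypoxia raise. Free IGF1 acts through the type 1 receptor, a tyrosine kinase related to the insulin receptor, of which fish carry 2 copies.

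The libraries held 14627514 counts (0 psu), 13628578 counts (8 psu) and 16112951 counts (16 psu), and levels are given as CPM, the counts of a gene in relation to the TMM-scaled size of its library. A gene was called different when its log2 fold change of CPM + 0.5 was past 1 in either direction, that is a fold change above 2 or below 0.5, and its reads in the 2 libraries passed a binomial test (exact, two-sided) after adjustment over the 16573 genes that reached 10 counts in any library. Each of the genes past the fold limit also passed the read test, which compares libraries and not salinities. All 95% intervals cover counting error only. They exclude the variation between fish, tanks and library preparations. The labels name the tissue as hepatopancreas and the cell type as histiocytes. In accordance with the tissue, 4 hepatocyte marker genes summed to between 18771 and 21005 CPM and 5 exocrine pancreas loci to between 14484 and 18036 CPM. Of 9 hepatocyte symbols 4 were matched, and of 7 exocrine pancreas symbols 4 were matched, with 5 loci. Histiocyte markers were not examined. In pooled tissue RNA, more cells of a type and more RNA per cell cannot be told apart.

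The clearest difference of the IGF axis lay at 16 psu, where igfbp1a was far above both other libraries and igf1rb and igfbp3 were also at their highest, while igf1 was at its lowest and igf1ra showed no called difference. Of the 5 genes, 0 were called in the 0 vs 8 psu set, where 9.84% of all genes were. In the 0 vs 16 psu set 2 were called, igfbp1a and igf1rb, against 11.1% of all genes. In the 8 vs 16 psu set 3 were called, igfbp1a, igf1rb and igfbp3, against 5.68%. Every call was in the direction of a higher level at 16 psu. The 3 sets share libraries with one another, so a high value in the 16 psu library enters both sets that contain it. The 5 genes were chosen with earlier results of these data known, so the shares of all genes serve as description only.

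**Figure D1:**
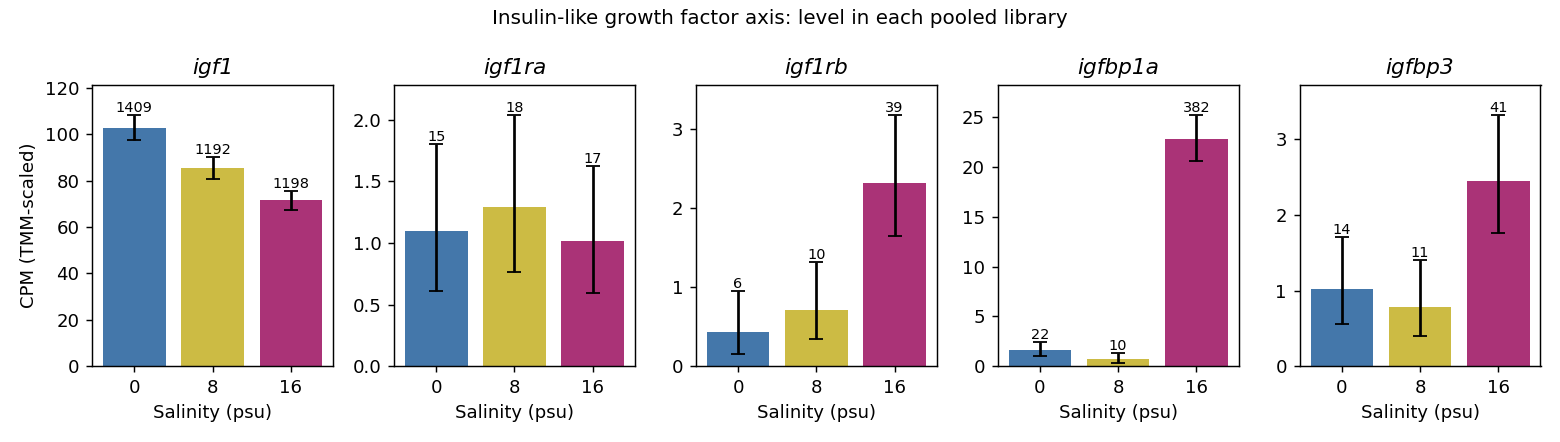
Level of igf1, igf1ra, igf1rb, igfbp1a and igfbp3 (vertical axis, TMM-scaled CPM, a separate scale for each gene) in the pooled libraries of 0, 8 and 16 psu. Bars are single libraries, error bars are 95% Poisson counting intervals and the numbers above them are raw counts. The intervals of igfbp1a, igf1rb and igfbp3 at 16 psu lie above those at 0 and 8 psu, and those of igf1ra overlap.

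The ligand gene igf1 had 1409, 1192 and 1198 counts in the libraries of 0, 8 and 16 psu, or 102.7, 85.3 and 71.4 CPM. Its level was thus highest in the freshwater library and lowest at 16 psu, and with TMM scaling the counting intervals of the 3 libraries did not overlap. The log2 fold change was -0.27 between 0 and 8 psu (95% counting interval -0.38 to -0.16), -0.25 between 8 and 16 psu (-0.37 to -0.14) and -0.52 between 0 and 16 psu (-0.64 to -0.41). A level at 16 psu of 0.697 times that in freshwater is within the 2-fold limit, so igf1 was not called in any set. Scaled by total counts, igf1 had smaller differences: -0.14 between 0 and 8 psu, -0.23 between 8 and 16 psu and -0.37 between 0 and 16 psu.

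The duplicated receptor genes had few counts and differed in pattern. The gene igf1rb had 6, 10 and 39 counts in the libraries of 0, 8 and 16 psu, or 0.437, 0.716 and 2.33 CPM. Against freshwater igf1rb rose at 16 psu by 1.59 on the log2 scale, or 2.41 without the added 0.5 CPM (counting interval 1.16 to 3.94), and against 8 psu by 1.22, or 1.70 without it (0.67 to 2.87). The 0 and 8 psu libraries could not be told apart for this gene, with a log2 ratio of 0.71 and a counting interval of -0.89 to 2.45. The 6 counts in freshwater are below the count minimum, so that igf1rb entered the test through its higher libraries. Both calls were kept with a pseudocount of 0.1 CPM, with log2 fold changes of 2.17 between 0 and 16 psu and 1.57 between 8 and 16 psu, and lost with 2 CPM, at 0.83 and 0.67.

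The other copy, igf1ra, had 15, 18 and 17 counts at 0, 8 and 16 psu, or 1.09, 1.29 and 1.01 CPM. Its 3 counting intervals overlapped widely. The log2 fold change between 0 and 16 psu was -0.07 (-0.11 without the added 0.5 CPM, with a counting interval of -1.20 to 1.00), and it turned to 0.03 with total counts as library sizes. At this depth a doubling or halving of igf1ra lies near the edge of what the counts could show. No source used here says how reads matching both copies were treated. Reads could have been divided between igf1ra and igf1rb, and the difference between the copies was not tested.

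**Figure D2:**
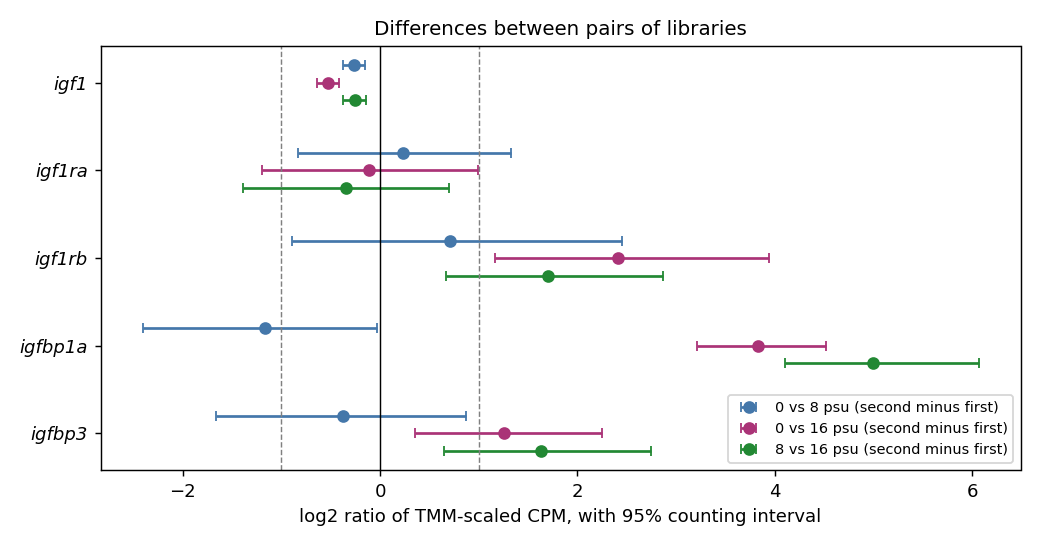
Log2 ratio of TMM-scaled CPM without a pseudocount (horizontal axis) for the 5 genes in each of the 3 pairs of libraries. Points are ratios of single libraries, bars are exact 95% counting intervals and dashed lines mark a 2-fold difference. The intervals of igfbp1a lie wholly above 2-fold in both sets with the 16 psu library, that of igf1rb does so in the 0 vs 16 psu set only, and those of igf1 lie between the dashed lines.

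The binding protein gene igfbp1a had 22, 10 and 382 counts in the libraries of 0, 8 and 16 psu, or 1.60, 0.716 and 22.8 CPM. The 16 psu library stood alone, and the lower library of the other 2 was that of 8 psu. The log2 fold change between 0 and 16 psu was 3.47, an 11.1-fold rise, and 3.83 without the added 0.5 CPM (counting interval 3.21 to 4.52). Between 8 and 16 psu it was 4.26, a 19.1-fold rise, and 4.99 without it (4.10 to 6.06). Among the 16573 genes this placed igfbp1a at rank 21 from the highest fold change in the 0 vs 16 psu set and at rank 4 in the 8 vs 16 psu set. Between 0 and 8 psu the log2 fold change was -0.79, which was not called. Without the added 0.5 CPM it was -1.16, with a counting interval just below 0 (-2.41 to -0.03). With a pseudocount of 0.1 CPM it was -1.06, past the fold limit, but the binomial read test gave an adjusted p of 0.0819. The calls of igfbp1a at 16 psu were kept by all the scalings, filters and tests tried, including edgeR's exact test at an assumed coefficient of biological variation as high as 0.4. The deposited table types this locus as ncRNA, whereas the RefSeq gene table of a later assembly lists it as the protein-coding gene igfbp1a. Which transcript model the reads were counted on is therefore not certain.

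Expressed within a library, which needs no scaling, there were 1.56 igfbp1a counts per 100 igf1 counts at 0 psu (counting interval 0.975 to 2.37), 0.839 at 8 psu (0.401 to 1.55) and 31.9 at 16 psu (28.3 to 35.8). The balance of counts between this binding protein and the ligand gene thus differed in the 16 psu library by far more than counting error. For igfbp3 the same measure was 0.994, 0.923 and 3.42 at 0, 8 and 16 psu, and for igf1rb it was 0.426, 0.839 and 3.26.

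The gene igfbp3 had 14, 11 and 41 counts in the libraries of 0, 8 and 16 psu, or 1.02, 0.788 and 2.45 CPM. The freshwater and 8 psu libraries overlapped in their counting intervals and the 16 psu library was above both. Against 8 psu igfbp3 rose at 16 psu by 1.19 on the log2 scale, or 1.63 without the added 0.5 CPM (counting interval 0.65 to 2.74). Between 0 and 16 psu the value was 0.95, just inside the limit of 1, or 1.26 without it (0.36 to 2.25). It was called there with total counts as library sizes (1.06) or with a pseudocount of 0.1 CPM (1.18), and the call between 8 and 16 psu was lost with a pseudocount of 2 CPM (0.67). In the RefSeq gene table igfbp3 and igfbp1a are neighbours with no annotated gene between them and do not overlap. The order comes from a later assembly than that to which the reads were mapped.

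The genes with the most similar profile over the 3 libraries were sought among 6299 named genes with at least 100 counts in a library, by the Euclidean distance of centred log2(CPM + 0.5) values. With 3 libraries many genes share a profile, and the names are a description only. The nearest to igfbp1a was pck1, which encodes the gluconeogenic enzyme phosphoenolpyruvate carboxykinase (distance 0.197), with 18, 8 and 280 counts at 0, 8 and 16 psu. Per 100 igfbp1a counts there were 81.8 pck1 counts at 0 psu (counting interval 41.4 to 160) and 80.0 at 8 psu (27.4 to 225). At 16 psu there were 73.3 (62.6 to 85.7). This ratio was chosen for display after the values had been seen, and its values at 0 and 8 psu rest on few counts. The next were mylz3, a myosin light chain gene (distance 0.239), and ckmb, a muscle creatine kinase gene (0.363, with 27, 7 and 364 counts). The nearest to igf1rb were nono (0.114), errfi1a (0.172) and mcm4 (0.188), and those to igfbp3 were fbln5, alox12 and manf (0.0711 to 0.0828). Of these, pck1, mylz3, ckmb, mcm4 and alox12 reached 100 counts through the 16 psu library alone, so the filter favoured genes high there. Genes with smaller changes lay closer to igf1 (nubp2, dnajc17 and stra6l, 0.0051 to 0.0084) and igf1ra (rbm14a, syne1a and dmxl1, 0.0063 to 0.0111).

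Most skeletal muscle marker genes were, like igfbp1a, highest at 16 psu. Of 13 muscle marker symbols 8 were matched, with 10 loci, none of them at 0 in every library. The level of mb was 4264, 3763 and 3077 CPM and was not called in any set. With mb the 10 loci summed to 4280, 3768 and 3192 CPM at 0, 8 and 16 psu, nearly all of it from mb. Without mb, the 9 remaining loci summed to 16.2, 5.51 and 114.7 CPM at 0, 8 and 16 psu. Calls of a higher level at 16 psu were made for 7 of the 9, against freshwater and against 8 psu alike. The share of all genes called higher at 16 psu was 5.79% against freshwater and 3.54% against 8 psu. Among the 7, mylpfb, with 9, 8 and 35 counts, passed the count minimum through the 16 psu library alone. At 8 psu 5 of the 9 loci were called lower than in freshwater and 0 higher, beside 5.41% and 4.42% of all genes. These 5 were ckma, ckmb, mylpfa, acta1b and atp2a1. The calcium pump gene atp2a1, with 13, 3 and 3 counts, was called lower at 8 and at 16 psu than in freshwater. It passed the count minimum through the freshwater library alone. The actin gene acta1a, with 7, 6 and 11 counts, was not called. Of the 7, atp2a1l had its lowest count in freshwater, with 3, 11 and 225 counts. Per 100 counts of these 9 loci there were 9.91 igfbp1a counts at 0 psu (counting interval 6.09 to 15.4), 13.0 at 8 psu (5.99 to 25.2) and 19.9 at 16 psu (17.7 to 22.2). For igf1rb the same ratio was 2.70 (0.981 to 5.98), 13.0 (5.99 to 25.2) and 2.03 (1.44 to 2.78). For igfbp3 it was 6.31 (3.39 to 10.8), 14.3 (6.85 to 27.0) and 2.13 (1.52 to 2.90). The values at 8 psu rest on 10 igf1rb counts and 11 igfbp3 counts, beside 77 counts of the muscle loci. The part of muscle RNA in the higher counts of igfbp1a, igf1rb and igfbp3 at 16 psu was not tested. The 4 hepatocyte marker loci and the 5 exocrine pancreas loci had 0 calls in any of the 3 sets, beside 9.84%, 11.1% and 5.68% of all genes.

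**Figure D3:**
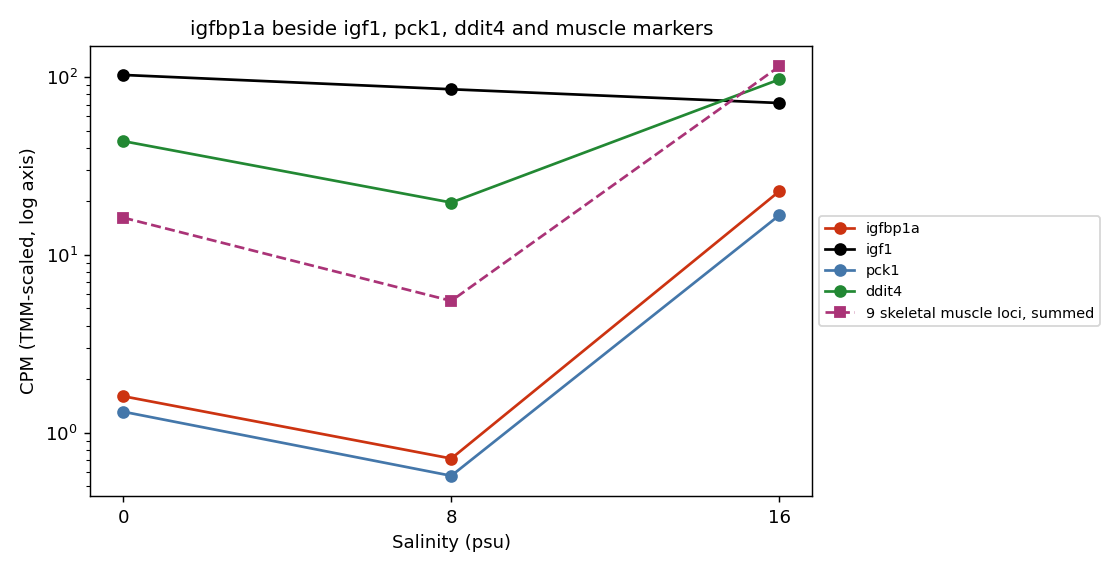
Level of igfbp1a beside igf1, pck1, ddit4 and the sum of 9 skeletal muscle loci (vertical axis, TMM-scaled CPM on a log scale) at 0, 8 and 16 psu (horizontal axis, evenly spaced). Each point is 1 library. The genes igfbp1a, pck1 and ddit4 and the muscle sum were lowest at 8 psu and highest at 16 psu, and igf1 was lowest at 16 psu. The muscle sum leaves out mb, and single loci within it, such as atp2a1 and atp2a1l, had another order.

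The rest of the pathway was examined through lists by role. Of 57 symbols 53 were matched, among them igfbp1 and igfbp3, which matched only igfbp1a and igfbp3 of the 5 genes above. The other matched symbols gave 65 loci, of which 57 were tested. In the 0 vs 8 psu set 7 of the 57 (12.3%) were called, 2 higher and 5 lower, beside 9.84% of all genes. In the 0 vs 16 psu set 7 (12.3%) were called, 4 higher and 3 lower, beside 11.1%, and in the 8 vs 16 psu set 5 (8.77%), 3 higher and 2 lower, beside 5.68%. Their median log2 fold change was 0.17, -0.02 and -0.10 in these sets, against medians of 0.00, 0.01 and 0.00 over all genes tested. These counts leave out igfbp1a, igf1rb and igfbp3. Of the 19 calls, 5 were kept by edgeR's exact test at an assumed coefficient of biological variation of 0.2 (igf2b in both sets with freshwater, htra1 between 0 and 8 psu, igfbp5a and ddit4 between 8 and 16 psu) and 0 at 0.4. The split of calls over all genes moved with the scaling: 733 were higher and 897 lower at 8 psu, but 992 and 704 with total counts, and 960 were higher and 874 lower at 16 psu against freshwater, but 1244 and 666 with total counts.

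Among the ligands, igf2b, which encodes the second IGF of vertebrates, had 516, 87 and 107 counts in the libraries of 0, 8 and 16 psu, or 37.6, 6.23 and 6.38 CPM. It fell by 2.50 on the log2 scale between 0 and 8 psu (counting interval of the ratio -2.94 to -2.26) and by 2.47 between 0 and 16 psu (-2.87 to -2.26), while 8 and 16 psu differed by 0.03 (-0.39 to 0.46). The freshwater library was thus the high library for igf2b, in contrast to igfbp1a. Most matched markers of enterocytes were also called higher in that library than in the saline libraries. Of 5 enterocyte symbols 3 were matched, with 4 loci. Of these 4 loci 3 were called lower at 8 and at 16 psu than in freshwater, beside 5.41% and 5.27% of all genes. The 4 loci summed to 1268 CPM in freshwater, 203.0 at 8 psu and 184.0 at 16 psu. Nearly all of these sums came from apoa4b, an apolipoprotein gene, with 1248, 191.4 and 171.4 CPM. Of the others, fabp2 had 23 counts in freshwater and 0 in both other libraries, and apoa4a had 83, 0 and 3. The intestinal cadherin gene cdh17 had 179, 162 and 209 and was not called in any set. Both fabp2 and apoa4a passed the count minimum through the freshwater library alone. The part of the enterocyte markers in the igf2b difference was not tested. The insulin genes ins and insb had 0 counts in every library, for which a floor of 3 counts per library is 0.219, 0.215 and 0.179 CPM and the upper ends of the 95% counting intervals are 0.269, 0.264 and 0.220 CPM.

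Among the receptors, insrb, an insulin receptor gene that the table types as a miscellaneous RNA, had 115, 141 and 58 counts in the libraries of 0, 8 and 16 psu. It fell by 1.17 on the log2 scale between 0 and 16 psu and by 1.42 between 8 and 16 psu. The 16 psu library was the low library for this gene. The other insulin receptor locus, insr, had 446, 634 and 629 counts and was not called, with log2 fold changes of 0.47 at 8 psu and 0.20 at 16 psu against freshwater. The scavenging receptor gene igf2r had 184, 162 and 170 counts and was not called.

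Among the other binding protein genes, igfals, which encodes the acid-labile subunit, had 7654, 4581 and 5027 counts in the libraries of 0, 8 and 16 psu, or 558.1, 328.0 and 299.8 CPM. Like igf1 it was highest in freshwater. The log2 fold change of -0.77 at 8 psu (counting interval -0.82 to -0.71) and of -0.90 at 16 psu (-0.95 to -0.84) stayed inside the 2-fold limit. There were 18.4 igf1 counts per 100 igfals counts at 0 psu (17.4 to 19.5), 26.0 at 8 psu (24.4 to 27.7) and 23.8 at 16 psu (22.4 to 25.4), so that counts of igfals were lower in relation to igf1 in both saline libraries. The gene igfbp5a had 1, 0 and 15 counts in the libraries of 0, 8 and 16 psu. It was called higher at 16 psu against both, and the lower counting limit of its log2 ratio was 0.92 against freshwater and 1.58 against 8 psu. It passed the count minimum through the 16 psu library alone. Its duplicate igfbp5b had 164, 247 and 155 counts and igfbp7 had 291, 590 and 536, and neither was called in any set. The log2 fold change of igfbp7 between 0 and 8 psu was 0.98. The genes igfbp2a and igfbp6b had at most 4 counts in a library and were not tested.

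In the growth hormone arm the receptor gene ghra had 504, 248 and 291 counts in the libraries of 0, 8 and 16 psu, or 36.7, 17.8 and 17.4 CPM. It fell by 1.03 on the log2 scale between 0 and 8 psu (counting interval of the ratio -1.28 to -0.83) and by 1.06 between 0 and 16 psu (-1.30 to -0.87). Both calls were lost with total counts as library sizes, at -0.90 and -0.91. The remaining 10 loci of this arm, which include the duplicate receptor, the JAK2 kinases and the SOCS feedback inhibitors, had 0 calls. The arm thus had 1 of 11 loci (9.09%) called in the 0 vs 8 psu set, beside 9.84% of all genes. It had the same share in the 0 vs 16 psu set, beside 11.1%, and 0 calls in the 8 vs 16 psu set, beside 5.68%. As with igf1 and igfals, neither of which was called, the level of ghra was highest in the freshwater library. The uncalled loci of the arm did not all share this order.

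**Figure D4:**
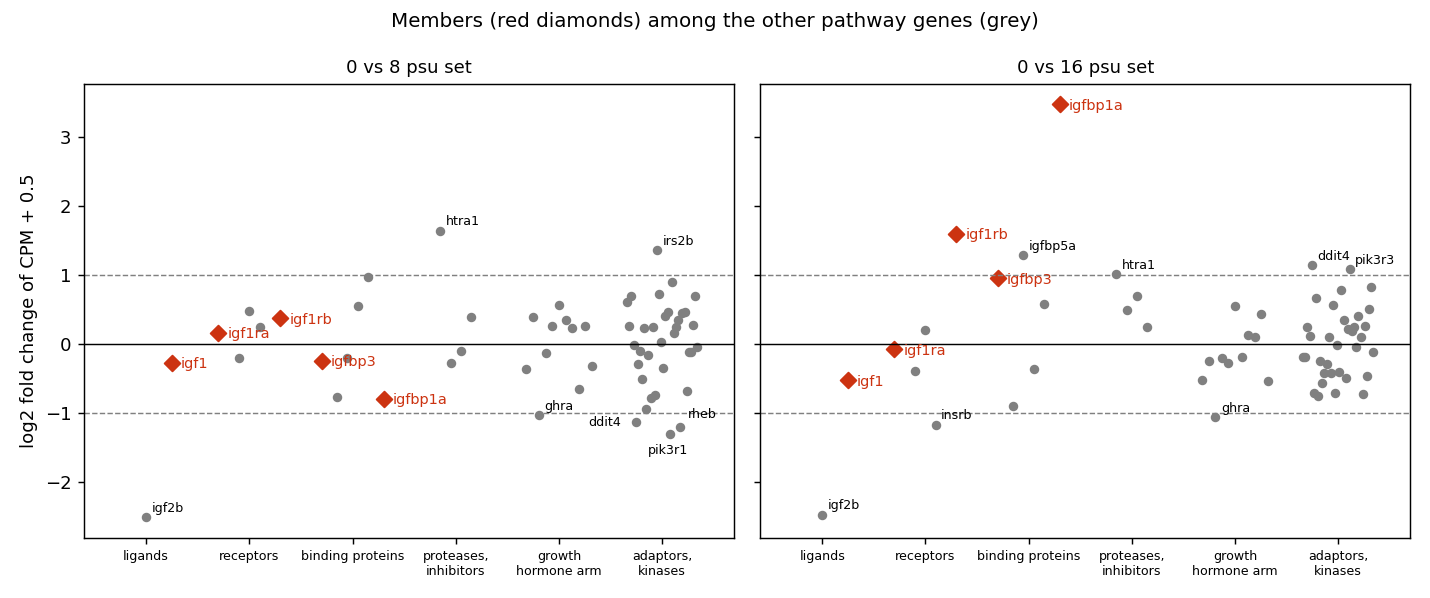
Log2 fold change of CPM + 0.5 (vertical axis) at 8 psu (left) and at 16 psu (right) against freshwater for the 5 genes of the IGF axis (red diamonds) and the 57 other pathway genes tested (grey points), grouped by role. Dashed lines mark the 2-fold limit and grey points past it are named. The value of igfbp1a at 16 psu, 3.47, is the highest on either side, and igf2b is the lowest on both, at -2.50 and -2.47.

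Among the adaptors and kinases below the receptors, ddit4, which encodes an inhibitor of mTORC1 known in mammals to respond to hypoxia and glucocorticoids, had 598, 275 and 1625 counts in the libraries of 0, 8 and 16 psu. Like igfbp1a it was lowest at 8 psu and highest at 16 psu, and it was called in all 3 sets, with log2 fold changes of -1.13 between 0 and 8 psu, 1.14 between 0 and 16 psu and 2.27 between 8 and 16 psu. The likeness to igfbp1a was in order and not in size. Per 100 igfbp1a counts there were 2718 ddit4 counts at 0 psu (counting interval 1779 to 4371), 2750 at 8 psu (1473 to 5799) and 425 at 16 psu (380 to 477). The small GTPase gene rheb, an activator of mTORC1, had 18, 4 and 21 counts and was called lower at 8 psu than in both other libraries. With its few counts, rheb passed the count minimum through the 0 and 16 psu libraries. The regulatory subunit gene of phosphoinositide 3-kinase, pik3r1, had 3070, 1266 and 2671 counts and fell by 1.30 on the log2 scale between 0 and 8 psu. The insulin receptor substrate gene irs2b showed the opposite order at 8 psu, with 96, 261 and 178 counts and a rise of 1.36 between 0 and 8 psu. For irs4b the counts were 125, 214 and 90, and it fell by 1.43 between 8 and 16 psu. Of the 34 loci tested in this list, 4 (11.8%) were called in the 0 vs 8 psu set beside 9.84% of all genes, 2 (5.88%) in the 0 vs 16 psu set beside 11.1% and 3 (8.82%) in the 8 vs 16 psu set beside 5.68%. The calls in the 0 vs 16 psu set were ddit4 and pik3r3, and pik3r3, with 1, 2 and 12 counts, passed the count minimum through the 16 psu library alone. Among proteases of the binding proteins and their inhibitors, htra1 alone was called, higher in both saline libraries than in freshwater, with 1, 18 and 11 counts in order of salinity, and it passed the count minimum through the saline libraries.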

How the data were processed

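RNA-Seq was carried out on 3 pooled libraries, 1 per salinity. Per the study's methods the authors filtered reads with FAST-QC, used MapSplice for mapping against Orenil1.1 and took the longest transcript of a gene, and the submitters' processing notes name HTSeq. The values they deposited are raw counts of reads per gene, without normalization. The strand setting is not given in the sources used here.

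TMM scaling (edgeR 4.0.16, R 4.3.3) used the 16573 genes that reached 10 counts in any library. With 1 library per salinity neither a quasi-likelihood fit nor DESeq2 could be fitted as a test, and EB-Seq, which the study used, was not installed. Log2 fold changes were taken on CPM + 0.5. The two-sided exact binomial test on reads, adjusted by Benjamini-Hochberg at 0.05, and the exact Clopper-Pearson intervals were computed with scipy 1.17.1 in Python 3.11.15, and checked on simulated data. The simulated data held counting error only, so the check does not cover variation between fish, tanks or library preparations. The changed genes in it were drawn from genes with more counts than igf1ra, igf1rb and igfbp3 had on average. Detection of changes in genes with so few counts was thus not checked. Locus numbers were named with the RefSeq gene table of assembly O_niloticus_UMD_NMBU, after which 15687 of 29605 genes carried a name other than a locus number. It holds no transcript lengths and no sequences, so counts were not corrected for transcript length and no sequence was printed. Ratios of counts between genes are therefore given to compare libraries, and are not ratios of transcripts. Symbols were matched allowing for paralogue suffixes (a, b, l, a number or -like), and ghrl (ghrelin) was left out. Genes named are the 5 genes, pathway genes called or sharing a name with them, the 3 nearest profiles of each, and markers of 6 cell types. The uncalled pathway gene igfals was named as well. The islet list had pdx1 as its only locus tested (156, 155 and 187 counts, not called), and the 2 erythrocyte loci were not called. The members and lists were chosen with earlier results of these data known. Alternatives were the scalings of DESeq2 1.42.0, the upper quartile and total counts, other filters, fold limits and pseudocounts, and edgeR's exact test at an assumed coefficient of biological variation (0.2 or 0.4).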

Additional observations from a re-analysis of the deposited data

How the results depend on the processing

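With 1 library per salinity no replicate could be left out. No paired analysis was possible because each group holds 1 sample. Between freshwater and 8 psu, 0 of the 5 genes were called under all alternatives run. In the 0 vs 16 psu set 2 were called, and 1 (igfbp1a) with a minimum of 100 counts (which removes igf1rb and igfbp3 from the test), a fold limit of 4 or an assumed coefficient of biological variation of 0.4. In the 8 vs 16 psu set 3 were called, and 1 (igfbp1a) under these 3 settings and with a coefficient of 0.2. Total counts and a fold limit of 1.5 gave 3 in the 0 vs 16 psu set. Of 75 recomputed fold changes of the 5 genes, 69 kept direction and call, and 1 changed sign: igf1ra between 0 and 16 psu, 0.0277 with total counts. Total counts shifted the median of all genes by 0.12 at 8 psu and 0.14 at 16 psu against freshwater.

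Over all genes 1630 were called between 0 and 8 psu, 1834 between 0 and 16 psu and 941 between 8 and 16 psu. In that order, a minimum of 100 counts gave 588, 728 and 284, a fold limit of 1.5 gave 3664, 4125 and 2161, and a limit of 4 gave 140, 213 and 119. The assumed coefficient of 0.2 gave 478, 818 and 257, and that of 0.4 gave 38, 96 and 55. The coefficient between such pools is not known here. Of 19 calls of other pathway genes, 5 were kept with 0.2 and 0 with 0.4. The counts of igf1ra, igf1rb and igfbp3, at most 41 per library, limit what can be read from them.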
